A study of Mus musculus with 13 samples.

Results

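The strength of replication initiation sites was compared between 5 SNS-seq peak lists, 3 from control cells (Ctrl) and 2 from cells given PhenDC3, out of the 13 samples of the series. SNS-seq sequences short nascent strands, the RNA-primed DNA made at newly fired origins, and each list holds the peaks called for 1 library. The cells were CGR8, a mouse embryonic stem (ES) cell line. Both groups were grown in 0.5% DMSO for 48 h, with 10 µM PhenDC3 added in the treated group. Merging nuclear peaks at an overlap of at least 1 bp gave 246934 regions, of which 22677 contained a peak from every list and are called shared regions. The comparison concerns where these regions stand within each list, how wide their peaks are and how all peaks fall on the chromosomes.

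A G-quadruplex (G4) is a four-stranded fold that single-stranded DNA can form where runs of guanine lie close together. PhenDC3 is a small molecule that binds and stabilises G4s. G-rich elements able to form G4s are a known feature of mammalian origins, where the helicase loaded as an inactive pair in G1 is activated in S phase and RNA-primed strands are then made. An RNase-treated library, in which the RNA primer and with it the protection of nascent strands from exonuclease is removed, serves as the background for peak calling.

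The lists held 79377 to 120882 nuclear peaks in Ctrl, and 144103 and 102400 with PhenDC3. For every peak summit a list gives a -log10 p and a fold enrichment, both against an RNase-treated library. Each condition had 1 such library, which the peak names give for all lists of that condition, so these share their denominator. The peak caller's formulas tie both columns to 2 quantities, the number of reads piled up at the summit and the level expected there from the RNase-treated library. Both were recovered for 100% of the peaks of every list, within a tolerance of 0.001. Reads are given as counted, whereas the expected level is on the caller's scale. On that scale reads are multiplied by 1, 0.953 and 0.927 in Ctrl replicates 1 to 3 and by 1 and 0.990 in PhenDC3 replicates 1 and 2. Depth differs between lists, so levels are set side by side with those of all shared regions. The median was 37, 41 and 34 reads at the summit in the Ctrl lists and 28 and 33 in the PhenDC3 lists. The counting SD of such a median peak is 15.6 to 18.9% of its value, which covers counting error only. Peak names show that replicate number 1 of both conditions and Ctrl replicate 3 were processed without the adapter filter named for replicate number 2, so values within numbers 1 and 2 are given beside the main results. The peak names of Ctrl replicate 3 also carry rep2, while the labels give that number to another list. Numbers follow the labels here, and what they share between conditions is not known. In RNA-seq of the same treatment (3 libraries a condition, 22232014 to 29486502 counts each), the 8 ES cell markers summed to 5971 to 6727 CPM (counts scaled to each library's total) in Ctrl and 8791 to 10099 with PhenDC3. Within that sum Nanog rose by 1.22 (log2, edgeR adjusted p = 0.000101) and Pou5f1 fell by 0.45 (adjusted p = 0.0113). The 5 fibroblast markers summed to at most 6.41 CPM in any library, with Twist2, a mesenchymal factor, at 0 in all 3 Ctrl libraries. The 5 germ layer markers summed to 13.2 to 23.1 CPM in Ctrl and 25.2 to 29.5 with PhenDC3, although Pax6, a neural factor among them, fell by 1.88 (log2, edgeR adjusted p = 0.00348). RNA-seq was made from other samples, so it checks the cell type but not the SNS-seq libraries.

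Predicted G4s of the regions with the largest changes are shown first, because the comparisons turn on G-rich sequence and on the RNase-expected level beside it. A G4 was predicted where the G4Hunter score reached 2 in a window of 25 bases. Each sequence is the highest-scoring prediction within 500 bp of the region's centre, read from GRCm38 on its G-rich strand, with runs of 2 or more G in capitals. The first 4 belong to regions that stood lower with PhenDC3 and the last 4 to regions that stood higher, each named by the gene of the nearest transcription start site (TSS).

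Wfikkn1, chr17:25887231-25887297, plus strand: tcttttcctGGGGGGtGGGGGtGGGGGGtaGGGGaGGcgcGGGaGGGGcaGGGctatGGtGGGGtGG
Insyn2b, chr11:34459128-34459226, plus strand: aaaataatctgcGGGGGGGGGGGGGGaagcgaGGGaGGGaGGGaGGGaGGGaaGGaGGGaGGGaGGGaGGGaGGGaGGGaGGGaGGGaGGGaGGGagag
Mir7005, chr2:180196954-180197026, plus strand: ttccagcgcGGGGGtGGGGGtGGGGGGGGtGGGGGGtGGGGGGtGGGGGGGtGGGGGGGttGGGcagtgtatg
Gm35676, chr8:110425838-110425889, minus strand: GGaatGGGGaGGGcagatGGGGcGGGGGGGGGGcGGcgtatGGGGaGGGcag
Gtpbp6, chr5:110108016-110108046, minus strand: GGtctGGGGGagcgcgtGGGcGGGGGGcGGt
Ryr2, chr13:12048564-12048607, minus strand: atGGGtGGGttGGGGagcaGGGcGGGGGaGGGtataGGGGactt
Rmi2, chr16:10871526-10871580, minus strand: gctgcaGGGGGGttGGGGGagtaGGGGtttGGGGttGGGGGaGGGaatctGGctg
4930401O12Rik, chr13:31151831-31151884, minus strand: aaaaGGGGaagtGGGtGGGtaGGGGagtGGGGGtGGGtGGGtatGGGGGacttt

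The 4 G4s beside falling regions scored 2.72 to 3.52 and the 4 beside rising regions 2.24 to 2.60. They held 6 to 16 and 3 to 8 runs of at least 3 G respectively. All 8 lay 276 to 395 bp from the centre of their region. These values describe 8 sequences chosen by the size of the change and were not tested.

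Shared regions stood high in the Ctrl lists and near the middle of the PhenDC3 lists when peaks were ranked by fold enrichment. On a scale from 0 (weakest peak of the list) to 100 (strongest), the median shared region stood at 74.0, 68.4 and 69.4 in Ctrl and at 50.4 and 58.2 with PhenDC3, values being listed throughout in the order of the replicate numbers. The conditions did not overlap, and the means were 70.6 ± 3.003 (SD, n = 3) and 54.3 (n = 2), a difference of -16.3 percentile points. The exact two-sided permutation p over lists was 0.2, the smallest that 3 lists against 2 can give. Between the lists numbered 1 the difference was -23.6 points and within number 2 it was -10.1 points. Between PhenDC3 replicate 2 and Ctrl replicate 3 it was -11.2 points.

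By the other measures the lists overlapped. Ranked by -log10 p, the median shared region stood at 80.1, 71.2 and 74.8 in Ctrl and at 69.3 and 75.0 with PhenDC3 (difference -3.22 points, exact permutation p = 0.6). Within number 1 that difference was -10.8 points and within number 2 it was +3.80 points. Ranked by reads at the summit, it stood at 78.2, 65.7 and 74.6 in Ctrl and at 80.4 and 76.2 with PhenDC3 (difference +5.46 points, exact permutation p = 0.4). By reads, PhenDC3 replicate 1 stood above all 3 Ctrl lists and PhenDC3 replicate 2 above 2 of them, the opposite order to that by fold enrichment.

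**Figure D1:**
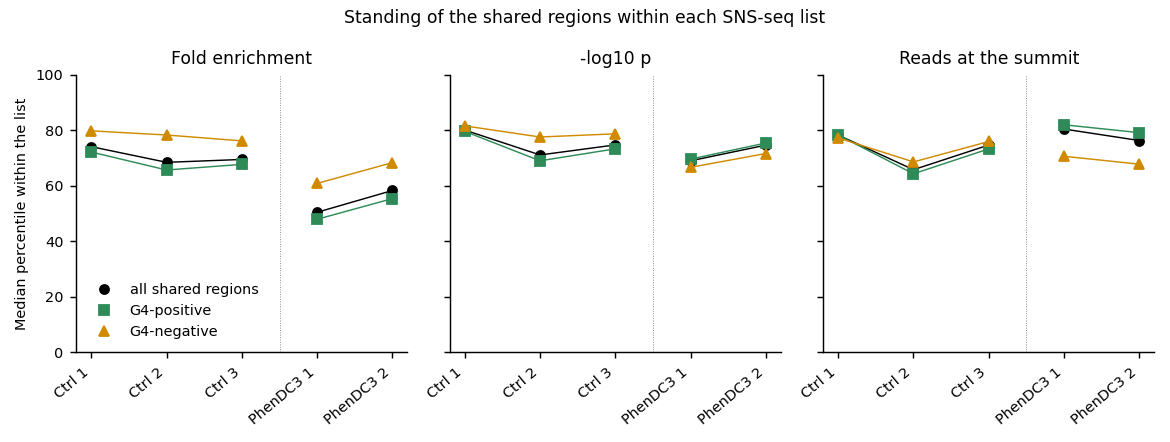
Median percentile (0 to 100, y axis) of shared regions within each of the 5 lists (x axis), for all 22677 shared regions and for those with and without a predicted G4, ranked by fold enrichment, -log10 p and reads at the summit. By fold enrichment both PhenDC3 lists (50.4 and 58.2) sit below the 3 Ctrl lists (68.4 to 74.0), while by reads G4-positive regions sit at 81.9 and 79.1 with PhenDC3 and G4-negative ones at 70.5 and 67.7.

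Peaks in shared regions stood above list-specific peaks by fold enrichment in all 3 Ctrl lists, and in 1 of the 2 PhenDC3 lists. In the controls the median percentile was 38.9, 34.7 and 31.7 for peaks found in no other list, and 70.98, 65.6 and 64.6 for peaks in shared regions. With PhenDC3 it was 47.9 and 50.4 for peaks found in no other list, and 46.5 and 54.1 for peaks in shared regions. By reads at the summit, peaks in shared regions stood above list-specific peaks in all 5 lists, at 64.2 to 76.1 against 26.5 to 32.5. These are descriptions over all peaks, and the 3 Ctrl and 2 PhenDC3 lists do not have equal chances to share a peak.

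By fold enrichment, the order of the shared regions was more alike within a condition than between conditions. Spearman's rho over the 22677 shared regions was 0.567 to 0.625 for the 3 pairs of Ctrl lists and 0.504 for the PhenDC3 pair. Across conditions it was 0.105 to 0.277 over 6 pairs. For reads at the summit, rho was 0.657 to 0.716 within Ctrl, 0.691 within PhenDC3 and 0.479 to 0.699 between them, so the ranges overlapped. For -log10 p it was 0.491 to 0.569, 0.354 and 0.0880 to 0.374, which overlapped as well. The highest value between conditions was that of Ctrl replicate 3 with PhenDC3 replicate 2 by both measures. For the level expected from the RNase-treated library, rho was 0.811 to 0.855 within Ctrl and 0.814 within PhenDC3, where the lists share that library, and 0.522 to 0.562 between conditions. These correlations are across regions of shared lists and are given with no p.

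Regions that were strong by fold enrichment in one control were strong in the other controls and spread over the list with PhenDC3. Strength was set in Ctrl replicate 3 and read in the other 4 lists. Its strongest 10% of shared regions (2273 regions) stood at a median percentile of 95.8 and 95.1 in the other controls, against 53.5 and 73.0 with PhenDC3. The conditions did not overlap (difference -32.2 points, exact permutation p = 0.33, the smallest for 2 lists against 2). Its weakest 10% stood at 30.1 and 28.8 in the controls and at 34.8 and 37.2 with PhenDC3. The span from the weakest to the strongest 10% was 65.8 and 66.2 points in the controls, and 18.7 and 35.7 points with PhenDC3. Ctrl replicate 3 shares its RNase-treated library with the other controls but not with the PhenDC3 lists, so this choice of regions favours the controls. The part of that shared library in these differences was not tested.

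With reads at the summit as the measure, the standing of the strongest regions overlapped between the conditions, as did the spans. The strongest 10% of Ctrl replicate 3 by reads (2265 regions) stood at 97.9 and 95.9 in the other controls, against 96.6 and 97.7 with PhenDC3 (difference +0.273 points, exact permutation p = 1). Its weakest 10% stood at 48.4 and 27.1 in the controls and at 56.4 and 44.4 with PhenDC3. The span was 49.5 and 68.8 points in the controls and 40.2 and 53.4 with PhenDC3, smaller within each replicate number. By -log10 p the strongest 10% stood at 96.8 and 95.4 in the controls, and at 79.1 and 92.96 with PhenDC3, and the spans were 38.5 and 50.9 points against 14.1 and 36.0. This measure also rests on the RNase-treated library that only the controls share with Ctrl replicate 3. Regions with most nascent-strand reads in a control thus also stood, at the median, in the top 5% of both PhenDC3 lists by reads.

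**Figure D2:**
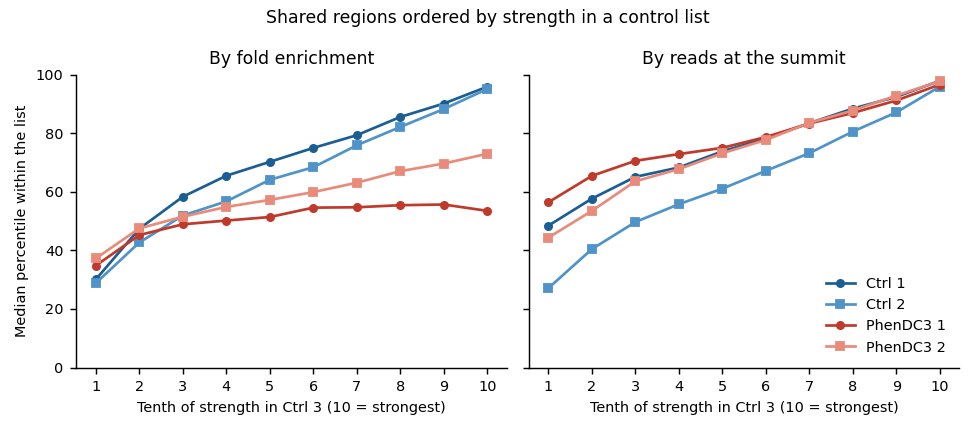
Median percentile within the list (y axis) of shared regions split into 10 groups by strength in Ctrl replicate 3 (x axis, 10 the strongest), for the 4 lists that did not set the strength. By fold enrichment the Ctrl lines reach 95.8 and 95.1 in the strongest group and the PhenDC3 lines 53.5 and 73.0, whereas by reads at the summit all 4 lines end between 95.9 and 97.9.

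Region by region, 664 of the 22677 shared regions fell and 33 rose in percentile by fold enrichment with PhenDC3 (limma with Benjamini-Hochberg adjustment, adjusted p of 0.05 or less), which is 2.93% and 0.146% of the regions tested. These calls were close to the threshold, with adjusted p from 0.0472 to 0.0497 among the falls, and 5546 regions had an unadjusted p under 0.05. Called falls had a median size of -76.5 percentile points (median SE 15.5) and called rises of 77.5 points (median SE 16.6). The lists of a condition share 1 RNase-treated library, so these SEs and p-values hold no variation between such libraries. Ranked among shared regions alone, so that list length and list-specific peaks do not enter, 484 regions fell and 228 rose, and the median change moved from -8.93 to +0.829 points. The share of falls among the calls was therefore set in part by what the regions were ranked against. Leaving out 1 list merges the rest anew, into 24960 to 29083 shared regions. limma called 0 regions with a replicate block (5499 at an unadjusted p under 0.05) and 0 without any one of the 3 Ctrl lists (4696 to 5125). Without PhenDC3 replicate 1 there were 2130 falls and 87 rises, and without PhenDC3 replicate 2 there were 2413 and 60, where the lone list is assumed to vary like the controls.

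By -log10 p, limma called 0 regions (3155 at an unadjusted p under 0.05, 2247 of them lower), and by reads at the summit it also called 0 (3018, of which 1912 were higher). The conditions did not overlap, lower with PhenDC3, at 6766 regions by fold enrichment (29.8%) and at 2725 by reads (12%). They did not overlap, higher with PhenDC3, at 2672 regions by fold enrichment (11.8%) and at 5188 by reads (22.9%). The balance of directions within whole lists was thus opposite in the 2 measures. Ranked among shared regions alone, the directions were nearly balanced by reads, with 1808 regions higher and 1811 lower (limma, unadjusted p under 0.05). By fold enrichment these counts were 2582 and 2779. Of the 664 regions called lower by fold enrichment, 416 had a lower mean percentile by reads and 143 had no overlap between the conditions by reads. Of the 33 called higher, 28 had a higher mean percentile by reads and 25 had no overlap. Over all 22677 shared regions, the mean percentile by reads was lower with PhenDC3 in 40.04%, and the median change was +3.26 points. Without overlap by reads, 12% of all shared regions lay lower and 22.9% higher.

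The fold enrichment at a summit is the ratio of the scaled reads plus 1 to the expected level plus 1, so its log2 change splits into these parts. Parts are given for the peak of the region with the highest fold enrichment in each list, and ranks by reads for the peak with most reads. In the 664 falling regions the median log2 fold enrichment changed by -1.67, the summit level by -0.51 and the RNase-expected level by +1.198. In the 33 rising regions the same medians were +1.32, +0.28 and -1.10. Over all shared regions they were -0.30, -0.22 and +0.07. The expected level was higher with PhenDC3 in 99.4% of the falling regions, in 0% of the rising ones and in 55.2% of all shared regions. Within replicate number 1 the falling regions changed by -0.85 in summit level and +0.99 in expected level, and within number 2 by -0.25 and +1.17. The falling regions were chosen by the same contrast, so these values describe them and no test is given.

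In absolute numbers, the falling regions had a median of 80, 67 and 73 reads at the summit in Ctrl, against 43 and 55 with PhenDC3. All shared regions had 54, 50 and 46 reads in Ctrl and 39 and 44 with PhenDC3. The expected level there was 5.17, 5.18 and 4 reads in Ctrl against 11.8 and 14 with PhenDC3, where shared regions as a whole had 6.40, 7, 5, 6.27 and 7. The rising regions had an expected level of 12.8, 13 and 10 reads in Ctrl and 4.71 and 5.02 with PhenDC3. Their reads at the summit were 43, 47 and 36 in Ctrl and 44 and 50 with PhenDC3. With 1 RNase-treated library per condition, a change in that background with PhenDC3 and a difference between those 2 libraries cannot be told apart.

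**Figure D3:**
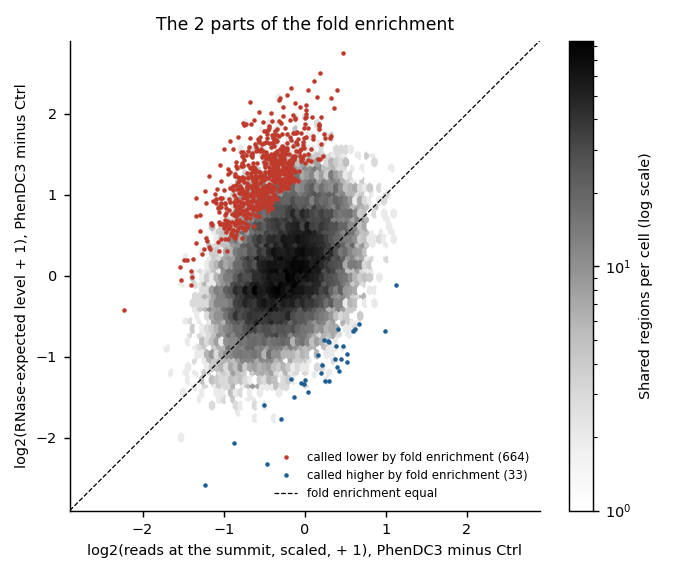
Change in log2(RNase-expected level + 1) (y axis) against change in log2(scaled reads at the summit + 1) (x axis), PhenDC3 minus Ctrl, for 22677 shared regions (grey cells, log colour scale) with the 664 regions called lower (red) and the 33 called higher (blue) by fold enrichment; on the dashed line the fold enrichment is equal. The red points sit at the upper left edge of the grey cells, at a median of -0.51 on the x axis and +1.198 on the y axis.

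The 10 regions with the largest falls went from the top to the bottom of the lists by fold enrichment, while their percentiles by reads with PhenDC3 were 56.4 to 98.6. Their percentiles by fold enrichment were at least 91.9 in every Ctrl list and at most 7.98 in every PhenDC3 list. The region at chr17:25887270-25888026, in an intron 6.79 kb from the TSS of Wfikkn1, a secreted binder of growth factors of the myostatin type, stood at 99.4, 99.3 and 91.9 in Ctrl and at 0.287 and 0.789 with PhenDC3. Its change was -96.3 points (SE 15.7, limma adjusted p = 0.0472). It had 94, 81 and 80 reads at the summit in Ctrl and 30 and 61 with PhenDC3, over an expected 4.29, 4.66 and 6 against 12.5 and 25 reads. By rank of reads it stood at 96.1, 89.9 and 94.9 in Ctrl and at 56.4 and 90.9 with PhenDC3, so the conditions overlapped.

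At Mir410, a microRNA of the imprinted Dlk1-Dio3 cluster, the intronic region chr12:109744112-109744705 lay 0.694 kb from the TSS. It stood at 93.9, 94.2 and 99.2 by fold enrichment in Ctrl and at 0.806 and 2.71 with PhenDC3. By reads it stood at 95.4, 92.2 and 99.01 in Ctrl and at 98.4 and 97.3 with PhenDC3, so the conditions overlapped. The expected level there was 7.31, 8 and 5 reads in Ctrl and 28.2 and 30 with PhenDC3. The reads at the summit were 90, 88 and 113 in Ctrl and 72 and 82 with PhenDC3.

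The region chr7:19820763-19821167, 1.79 kb from the TSS of Bcl3, a nuclear partner of NF-kB proteins, ranked lower by reads as well as by fold enrichment. It stood at 99.1, 93.7 and 96.4 by fold enrichment in Ctrl and at 1.16 and 2.46 with PhenDC3, and at 98.4, 85.8 and 94.4 against 68.1 and 58.8 by reads. Its expected level was 6.03, 6.54 and 4.58 reads in Ctrl and 12.5 and 13 with PhenDC3. The other 7 largest falls lay nearest to Insyn2b, Mir7005, Gm35676, Frmd4b, Ccnd1, Ilrun and Nfil3. The region nearest to Ccnd1 (cyclin D1, which drives entry into S phase) was 125 kb away, and the one nearest to Nfil3, a leucine zipper transcription factor, was 39.5 kb away, so a nearest gene is a landmark and no target. Of the 10 falls, 9 had a predicted G4 within 500 bp, and the region nearest to Ccnd1 had none.

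By reads, 25 of the 33 called rises also lay higher without overlap, and 143 of the 664 called falls lay lower. Over all shared regions these shares were 22.9% and 12%. By fold enrichment, the 10 largest rises mirrored the falls. The strongest, chr5:110107490-110107849 in an intron 0.528 kb from the TSS of Gtpbp6, a GTP-binding protein of mitochondrial ribosome assembly, stood at 2.88, 5.86 and 3.12 by fold enrichment in Ctrl and at 90.2 and 99.6 with PhenDC3 (change +91.0 points, SE 16.6, limma adjusted p = 0.0472). By reads it stood at the top of every list, at 98.6, 98.98 and 98.7 in Ctrl and at 98.95 and 98.3 with PhenDC3. The expected level was 41.1, 45 and 35 reads in Ctrl and 8.63 and 6 with PhenDC3. A site with very many reads in both conditions thus ranked near the bottom of the Ctrl lists by fold enrichment, where its RNase-expected level was high.

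At other rises the rank by reads was higher as well. The region chr13:12048161-12048458, in an intron 58.6 kb from the nearest TSS of Ryr2 (a calcium release channel of heart muscle), stood at 6.68, 8.17 and 12.9 by fold enrichment in Ctrl and at 94.1 and 97.7 with PhenDC3. By reads it stood at 43.1, 24.3 and 36.5 in Ctrl and at 65.4 and 67.7 with PhenDC3, without overlap. The intergenic region chr16:10871045-10871477, 36.2 kb from the TSS of Rmi2, which encodes a subunit of the BLM dissolvasome, stood at 40.2, 3.29 and 26.2 by reads in Ctrl and at 83.3 and 53.5 with PhenDC3. Rises also lay within 1 kb of the TSS of Gnao1 (a neuronal G protein subunit, 0.628 kb) and of Alg6 (a glucosyltransferase of N-glycan synthesis, 0.894 kb). The rest lay nearest to 4930401O12Rik, Gm9057, Dynlt1a, Dot1l and Akr1c13, at 6.88 to 89.5 kb. All 10 had a predicted G4 within 500 bp.

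**Figure D4:**
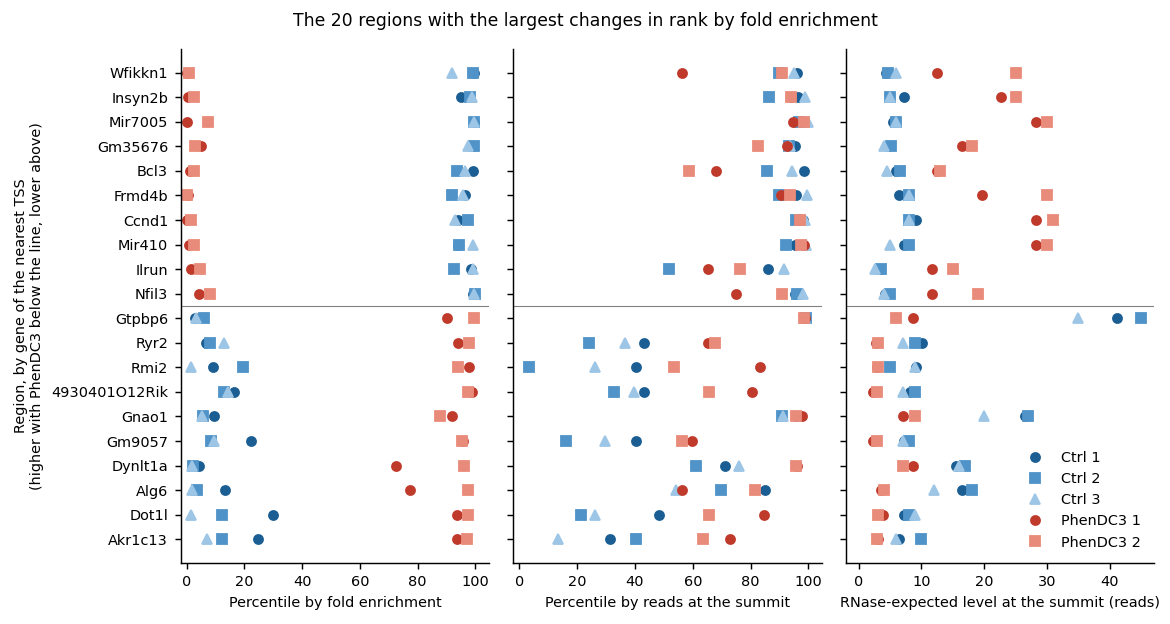
Percentile by fold enrichment, percentile by reads at the summit and RNase-expected level (reads) in the 5 lists (points) for the 10 largest falls (above the line) and the 10 largest rises (below it), named by the gene of the nearest TSS. Red PhenDC3 points lie at most at 7.98 by fold enrichment in the falls, while their expected levels lie between 11.8 and 31 reads, above every Ctrl point.

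By reads, G4-positive regions stood further above G4-negative ones with PhenDC3 than in any Ctrl list. Of the shared regions 17548 had a predicted G4 within 500 bp of the centre and 5129 had none. By reads at the summit, G4-positive regions stood at a median of 78.2, 64.2 and 73.2 in Ctrl and at 81.9 and 79.1 with PhenDC3. G4-negative regions stood at 77.2, 68.5 and 75.9 in Ctrl and at 70.5 and 67.7 with PhenDC3. The gap (positive minus negative) was +1.03, -4.28 and -2.65 points in Ctrl, and +11.3 and +11.3 points with PhenDC3, without overlap (means -1.97 ± 2.72, SD, n = 3, and 11.3, n = 2, exact permutation p = 0.2, the smallest possible). It rose by 10.3 points within replicate number 1 and by 15.6 within number 2.

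By -log10 p the gap moved the same way, from -2.13, -8.70 and -5.43 points in Ctrl to +2.71 and +3.29 with PhenDC3 (exact permutation p = 0.2). By fold enrichment it did not. G4-positive regions stood below G4-negative ones in all 5 lists, by -7.63, -12.6 and -8.46 points in Ctrl and by -12.9 and -13.0 with PhenDC3, and the change of -3.38 points became +4.19 with the G4 within 250 bp of the centre. The expected level of G4-positive regions was 6.40, 7 and 5 reads in Ctrl and 7.06 and 8 with PhenDC3. That of G4-negative regions was 5.48, 6 and 4.28 reads in Ctrl and 4.71 and 5.77 with PhenDC3. G4-positive regions thus had relatively more reads with PhenDC3 in the SNS libraries, and a higher expected level from the RNase-treated library as well. Both called groups were mostly G4-positive, at 87.7% of the falls and 90.9% of the rises against 77.4% of all shared regions.

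The same held over all peaks. Regions with a predicted G4 held 58.0, 63.5 and 64.3% of the peaks of the Ctrl lists and 71.4 and 77.7% of the PhenDC3 lists (difference 12.7 percentage points, exact permutation p = 0.2). In the strongest 10% of each list by reads it was 68.8, 67.2 and 74.8% in Ctrl and 78.5 and 82.0% with PhenDC3 (exact permutation p = 0.2). Within replicate numbers 1 and 2 the share over all peaks rose by 13.4 and 14.2 percentage points.

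Summits lay on one side of the G4. Of all pairs of a summit and a predicted G4 within 500 bp, the summit lay 3′ of the G4 on the G-rich strand in 72.9, 75.5 and 78.6% in Ctrl and in 83.7 and 84.5% with PhenDC3 (difference 8.45 percentage points, exact permutation p = 0.2). In shared regions this share was 82.2, 82.4 and 82.0% in Ctrl and 82.6 and 82.7% with PhenDC3, a difference of 0.439 percentage points (exact permutation p = 0.2). The commonest offset in shared regions was 200 to 250 bp 3′ of the middle of the G4 in all 5 lists, and the median 3′ offset was 243 to 262 bp. The position of the summit beside the G4 in shared regions was thus nearly equal in both conditions, while the lists as a whole differed more.

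**Figure D5:**
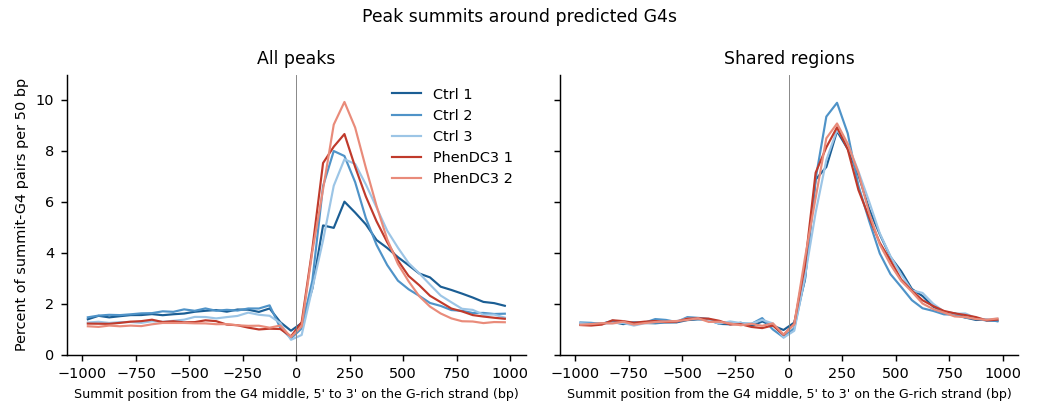
Share of summit-G4 pairs (percent per 50 bp, y axis) by the position of the summit from the middle of the G4, 5′ to 3′ on the G-rich strand (bp, x axis), for all peaks and for peaks of shared regions in the 5 lists. The percentages are of pairs within 1000 bp. Each line peaks 3′ of the G4, and over all peaks the highest bin holds 6.01 to 7.99% of the pairs in Ctrl and 8.66 and 9.92% with PhenDC3.

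By reads, promoter regions stood above the other shared regions in every list, and by less with PhenDC3 when ranked within whole lists. A shared region was assigned to a promoter where it touched the 2 kb upstream of a TSS, which held for 2442 of them (10.8%). These had a median of 77, 75 and 56 reads at the summit in Ctrl and 46 and 52 with PhenDC3, against 52, 48, 45, 38 and 44 reads in the other shared regions. By rank of reads, promoter regions stood above the others by 16.3, 25.6 and 12.2 points in Ctrl and by 10.1 and 9.95 points with PhenDC3, without overlap (change -7.996 points, exact permutation p = 0.2). With equal numbers of peaks the gaps overlapped, at 17.6, 21.4 and 9.69 points in Ctrl and 12.7 and 10.8 with PhenDC3 (exact permutation p = 0.6). Between PhenDC3 replicate 2 and Ctrl replicate 3 the gap changed by -2.27 points. Promoter regions themselves stood at 92.4, 88.3 and 85.4 in Ctrl and at 88.8 and 86.2 with PhenDC3, which overlapped. The others stood at 76.1, 62.7 and 73.2 in Ctrl and at 78.7 and 76.2 with PhenDC3. The expected level at promoters was 10.05, 11 and 7.98 reads in Ctrl and 7.06 and 9 with PhenDC3.

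By fold enrichment, promoter regions stood below the others in every list, by -6.48, -3.25 and -18.3 points in Ctrl and by -1.13 and -3.06 points with PhenDC3 (change +7.25 points, exact permutation p = 0.2). Within replicate number 2 this change was 0.188 points. By -log10 p the gaps overlapped, at 8.18, 16.5 and -0.175 points in Ctrl and 7.84 and 8.05 with PhenDC3 (exact permutation p = 0.8). Promoters made up 5.27% of the called falls and 6.06% of the called rises. Over all peaks the promoter share was 14.0, 17.0 and 8.29% in Ctrl and 8.48 and 7.54% with PhenDC3, so Ctrl replicate 3 lay between the PhenDC3 lists (exact permutation p = 0.4).

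Genes with a shared region within 2 kb of a TSS were counted in 5 lists, and limma called 0 of them, beside 2.93% and 0.146% of all shared regions. The unadjusted p was under 0.05 at 4 of 18 (22.2%), namely Pou5f1, Klf2, Gins2 and Hras, beside 24.5% of all shared regions. Of the 18 genes 9 had a lower mean percentile, beside 63.1% of all shared regions. Among the pluripotency genes 5 of 16 had such a region, 4 with a lower and 1 with a higher mean percentile by fold enrichment. At Pou5f1, which encodes Oct4, a core factor of the ES cell state, the region chr17:35509490-35510182 stood at 97.8, 97.9 and 95.3 in Ctrl and at 42.4 and 41.7 with PhenDC3. Its change of -54.9 points (SE 12.7) had a limma adjusted p of 0.0504. Its peak of highest fold enrichment had 118, 110 and 92 reads at the summit in Ctrl and 27 and 69 with PhenDC3, over an expected 7.55, 8.19 and 5.99 against 4.70 and 14 reads. By its peak with most reads, which in PhenDC3 replicate 1 is another peak, it stood at 98.6, 96.6 and 97.1 in Ctrl and at 96.3 and 94.3 with PhenDC3. The region was thus near the top of all 5 lists by reads. It is 1 of 2 shared regions at the gene and was taken because it stood higher in Ctrl, a choice that favours a fall. The other, chr17:35505426-35506026 and 0.306 kb from the TSS, stood at 52.2, 22.7 and 25.3 in Ctrl and at 96.6 and 31.8 with PhenDC3 (difference +30.8 points, SE 22.5, limma adjusted p = 0.422).

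At Klf2, a Krüppel-like factor of naive pluripotency, the region stood at 65.8, 59.4 and 47.5 in Ctrl and at 3.03 and 7.69 with PhenDC3 (change -52.2 points, SE 16.4, limma adjusted p = 0.0926). By reads this region was near the top of every list, at 99.4, 99.2 and 97.8 in Ctrl and 96.0 and 95.5 with PhenDC3. Changes at Tfcp2l1 (-5.04 points), Utf1 (-4.24) and Klf4 (+2.12) were smaller than their SEs of 10.97, 25.6 and 27.7. Klf4 varied within conditions, at 84.1, 7.74 and 55.9 in Ctrl and 88.0 and 14.7 with PhenDC3. Number 1 of both conditions stood high there and number 2 low. The other shared region at Klf4, 0.901 kb from the TSS, did not follow that pattern. It stood at 15.4, 10.9 and 69.5 in Ctrl and at 21.3 and 59.6 with PhenDC3.

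Among 27 genes of origin licensing and firing, 2 had a shared region. Gins2, a subunit of the GINS part of the replicative helicase, had it 0.143 kb from its TSS, and it stood at 19.2, 19.2 and 57.3 in Ctrl and at 99.005 and 99.4 with PhenDC3 (change +67.3 points, SE 17.98, limma adjusted p = 0.0654). Its reads were 57, 41 and 44 in Ctrl and 69 and 72 with PhenDC3, without overlap. At Orc4, a subunit of the origin recognition complex, the values overlapped, at 77.8, 53.3 and 26.4 in Ctrl and 4.43 and 65.1 with PhenDC3. Among 14 helicases that unwind G4s, Wrn, the Werner syndrome helicase, changed by -18.9 points (SE 19.04), and Recql5, a RecQ helicase, by +23.7 points (SE 16.3), with limma adjusted p of 0.566 and 0.391. Both regions also lay near the TSS of a neighbour, Purg and Sap30bp.

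Among 18 oncogenes known for promoter G4s, 9 had a shared region, 3 with a lower and 6 with a higher mean percentile. The largest changes were at Hras, a small GTPase, with 68.7, 52.4 and 19.9 in Ctrl and 97.1 and 87.6 with PhenDC3 (change +45.4 points, SE 18.1, limma adjusted p = 0.163), and at Mycl (+28.6 points) and Vegfa (+9.29). Lower mean percentiles were found at Ret (-15.0 points) and Ccnd1 (-11.9 points), among others. Vegfa had another shared region, 0.106 kb from the TSS, which changed by -0.925 points (SE 18.5). Myc, the transcription factor whose promoter G4 is best known, changed by +0.0994 points (SE 17.1), from 77.8, 46.0 and 89.9 in Ctrl to 80.8 and 61.8. Of 14 p53 target genes, 0 had a shared region within 2 kb of a TSS.

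Of the loci the study displayed, Mafg and Hip1 held 2 shared regions each, and Xpa and Mir466n held 0. The Hip1 region 0.284 kb from its TSS stood at 95.0, 96.8 and 85.2 in Ctrl and at 83.6 and 56.9 with PhenDC3 (change -22.1 points, SE 10.8, limma adjusted p = 0.241). The promoter region of Mafg 0.956 kb from its TSS varied within both conditions, at 2.80, 92.7 and 6.84 in Ctrl and 24.9 and 85.8 with PhenDC3.

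RNA of genes with a shared region in their promoter was compared with that of all genes. Of 13972 genes tested, 18% rose and 18.7% fell with PhenDC3 (edgeR quasi-likelihood test, adjusted p of 0.05 or less). Of 1754 tested genes with a shared promoter region, 18.7% rose and 21.3% fell. Where that region lay lower by fold enrichment without overlap (392 genes) it was 17.6% and 23.7%, and where it lay higher (248 genes) it was 17.3% and 19.4%. Where it lay lower by reads (298 genes) it was 17.1% and 22.8%, and where it lay higher (271 genes) it was 13.7% and 25.1%. The median log2 change of RNA in these 4 groups was -0.03, -0.05, -0.00467 and -0.11. At Pou5f1 RNA changed by -0.45 (log2, edgeR adjusted p = 0.0113) and at Gins2 by -0.53 (adjusted p = 0.00413), with no region at either gene past the test.

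Median widths in shared regions were smaller with PhenDC3 and differed more at G4-negative regions, with no region past the test. Taken at the peak of highest fold enrichment, they were 380, 330 and 262 bp in Ctrl and 247 and 251 bp with PhenDC3. At G4-negative regions they were 469, 429 and 320 bp in Ctrl against 246 and 251 bp, and at G4-positive regions 360, 314 and 251 bp against 247 and 252 bp. limma on log2 width of the region's widest peak in each list called 0 regions (3638 at an unadjusted p under 0.05, 3260 of them narrower). In that fit the median difference was -0.30, and 69.7% of regions were narrower. Over all peaks the median width was 227, 236 and 170 bp in Ctrl and 189 and 174 bp with PhenDC3, which overlapped (exact permutation p = 0.6).

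Width also followed the caller's floor. The shortest peak was 118, 117 and 82 bp long in the Ctrl lists and 109 and 93 bp long in the PhenDC3 lists. Divided by that floor, the median width was 1.92, 2.02 and 2.07 in Ctrl and 1.73 and 1.87 with PhenDC3, without overlap (exact permutation p = 0.2). The widest 10% of peaks started at 537, 502 and 398 bp in Ctrl and at 379 and 346 bp with PhenDC3, also without overlap (exact permutation p = 0.2). The median summit also had fewer reads in the PhenDC3 lists (28 and 33 against 34 to 41), and the part of read number in the width was not tested.

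The share of peaks on a chromosome did not pass the test anywhere. limma on log2 of each chromosome's share of the list called 0 of 21 chromosomes (0 at an unadjusted p under 0.05, smallest adjusted p = 0.671). Without PhenDC3 replicate 1 it called 3 and without PhenDC3 replicate 2 it called 2, where a lone list stands for the condition. The densest autosome was chromosome 11 in all 5 lists, with 48.2 to 78.9 peaks per Mb of sequence in Ctrl and 95.5 and 55.9 with PhenDC3. The sparsest was chromosome 14, with 19.3 to 33.7 in Ctrl and 40.9 and 27.8 with PhenDC3. Density followed base composition in every list (Spearman's rho with GC content 0.868 to 0.926 over 19 autosomes, a description). The largest fitted change was on Y, at -0.35 (log2, SE 0.21), with 0.274, 0.305 and 0.329% of the peaks in Ctrl and 0.187 and 0.301% with PhenDC3.

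The X chromosome, single-copy in XY cells, had few peaks. It held 1.78, 1.62 and 1.67% of the Ctrl peaks and 1.21 and 2.02% of the PhenDC3 peaks, so the PhenDC3 lists lay on both sides of the Ctrl lists. Median reads at the summit were 31, 36 and 32 on X in Ctrl and 23 and 27 with PhenDC3, below the autosomes at 37, 41, 34, 28 and 33. The expected level on X was 3.65, 4.45 and 3 reads in Ctrl and 3.14 and 4 with PhenDC3, against 5.48, 7, 5, 4.27 and 6 on the autosomes. The median fold enrichment was in turn higher on X than on the autosomes in every list, for example 5.89 against 5.39 in Ctrl replicate 1. Called falls were spread over the chromosomes, at 63 of 1630 shared regions on chromosome 2 and 62 of 1611 on chromosome 4. On X it was 3 of 328 and on Y 1 of 101, beside 664 of 22677 over all chromosomes.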

How the data were processed

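The authors mapped SNS-seq reads to mm10 (GRCm38) with Bowtie2 2.2.5, called peaks with MACS2 2.1.0 against 1 RNase-treated library per condition and kept those overlapping SICER regions. The deposited lists hold, per summit, a -log10 p-value and a fold ratio against that background. RNA-seq counts per gene were deposited as raw counts. The authors' table of normalized pseudo-counts and their table of fold changes and p-values were not used. Values were ranked within each list (0 to 100). Reads and expected level at the summit were recovered from both columns (tolerance 0.001), a step chosen after seeing the data, like the analyses of reads, G4 offsets and width over the floor. Regions were tested with limma 3.58.1, single values with exact permutation tests over lists, and genes with edgeR 4.0.16 (DESeq2 1.42.0 as alternative). The limma and edgeR fits were tried on simulated data, in which lists or libraries varied independently of each other. Annotation and sequence were RefSeq's for GRCm38.p6, of the same build (45756 transcripts, 569323 predicted G4s). A region took the value of its strongest peak in a list, and a gene with several regions that strongest in Ctrl. In the width test a region took its widest peak. Named regions were the 10 largest rises and 10 largest falls by fold enrichment past the test, in the same direction by -log10 p and without overlap between conditions; the 3 lowest and 3 highest changes were named per gene list, except for 1 gene that is not reported here. The members and lists were chosen with earlier results of these data known. Nothing in the labels ties a replicate to a separate culture across conditions, and p-values measure the spread between these libraries only.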

Additional observations from a re-analysis of the deposited data

How the results depend on the processing

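The replicate block (numbers 1 and 2) left 0 falls and 0 rises by fold enrichment, and changed the sign of no difference between lists. For the strongest regions of Ctrl replicate 3 it could change nothing, since that list is already left out there. The labels do not tie equal numbers to 1 culture, and the lists share only 2 numbers. In RNA-seq the block raised the genes called higher from 2518 to 3797. There, deviations from the group means correlated at 0.0904, 0.544 and 0.405 for numbers 1, 2 and 3. Each RNA sample correlated best with its own number, a hint from the data and not from the design. The SNS-seq lists did not repeat this for number 2. By every measure PhenDC3 replicate 2 correlated more with Ctrl replicate 3 than with Ctrl replicate 2 (by reads 0.236 against 0.104). For number 1 the value by reads was 0.336.

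By fold enrichment, normal scores gave 2023 falls and 369 rises, and moderation without trend gave 1499 and 212. Rises numbered 228 of 22677 when ranked among shared regions and 59 of 22677 with the mean of peaks. They numbered 21 of 14121 with equal numbers of peaks and 52 of 7839 with the stronger part of each list. Settings that drop peaks or a list merge anew, so their counts are over other regions, 24960 to 29083 with 1 list left out. Leaving out 1 list gave 0 to 2413 falls and 0 to 87 rises by fold enrichment, 0 to 752 falls by -log10 p and 0 to 3 called chromosomes. Leaving out 1 RNA library gave 1623 to 2727 genes lower. All 20 named regions lost their call with the replicate block or without any one Ctrl list. With the block their changes were -98.8 to -92.3 and 74.4 to 90.5 points, at adjusted p of 0.0526 to 0.0596.

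Some signs reversed. The change in the G4 gap by fold enrichment was 4.19 with the G4 within 250 bp. That in the promoter gap by -log10 p was 2.03 with equal numbers of peaks, 2.09 with the stronger part, and -5.49 to 2.59 leaving out 1 list. The median percentile by -log10 p changed by -6.11 to 1.08 leaving out 1 list. The difference by reads in the strongest regions was -0.0123 and -1.03 with strength set in Ctrl replicates 1 and 2, -0.0365 with equal numbers, and -0.727 to 1.51 leaving out 1 list. Without Ctrl replicate 3, which sets the strength, there is no value. The cause of these differences was not tested. Precision is limited by 3 and 2 lists, by 28 to 41 reads at the median summit and by 1 RNase-treated library per condition.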
